A study of Mus musculus with 16 samples.

Results

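The mitochondrial ribosomal proteins are the nuclear-encoded proteins that, with rRNA made inside the organelle, form the mitoribosome. The genes described here are all rows of the count table whose symbol is Mrpl or Mrps followed by a number and at most 1 letter, a rule that uses names and no measured value. It gave 78 genes of the 46078 counted: 51 of the large subunit, 26 of the small subunit, and Mrps36, which keeps a ribosomal symbol but is now assigned to the oxoglutarate dehydrogenase complex. Of the 78 genes, 77 had enough counts to be tested; Mrpl53 had 2 counts in all 16 libraries together.

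The mitoribosome translates the few proteins encoded by mitochondrial DNA, all of them subunits of respiratory complexes I, III, IV and the ATP synthase. Its proteins are made in the cytosol from nuclear genes and imported. Compared with bacterial ribosomes it has lost rRNA and gained proteins, so that many of its members have no bacterial counterpart. Brown fat burns fuel for heat through uncoupling protein 1 (Ucp1) and is packed with mitochondria; white fat stores lipid, and its inguinal depot can acquire thermogenic adipocytes in the cold.

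Poly(A) RNA was sequenced from brown fat (BAT) and inguinal white fat (WAT) of female wild-type C57BL/6 mice labelled as 16 weeks old. All mice were raised at 30 °C, near thermoneutrality for the mouse. The cold groups left that temperature when 10 to 12 weeks old, spent 2 weeks at 18 °C and ended with 3 weeks at 5 °C, while the warm groups stayed at 30 °C; food was withdrawn 2 to 3 h before collection in every group. The 4 groups, BAT at 30 °C, BAT at 5 °C, WAT at 30 °C and WAT at 5 °C, hold 4 libraries each, and nothing in the labels says that these came from separate animals, so each p-value reflects only how much these libraries vary, which may be technical. There are 2 doubts about the labels: the tissue field calls the brown fat inguinal, and in 4 of the 8 BAT libraries (replicates 3 and 4 at 30 °C, 1 and 2 at 5 °C) the source name gives the other temperature than the title and the housing field, which were followed here.

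Totals ran from 54264023 to 71289020 counts per library, and the members took 0.226% to 0.405% of them, 139116 to 255437 counts. Levels in CPM (counts scaled to library size) below are further adjusted to a common composition over all 16 libraries by the trimmed mean of M-values (TMM). Brown fat carried its marker: Ucp1 lay at 633 to 2018 CPM at 30 °C and 12380 to 13780 CPM at 5 °C, against 0.0839 to 0.324 CPM in WAT at 30 °C. The BAT libraries with a conflicting source name lay with the group of their title. Ucp1 was at 759 and 1893 CPM in replicates 3 and 4 at 30 °C, and at 13300 and 12380 CPM in replicates 1 and 2 at 5 °C. In brown fat the white-fat markers summed to 769.5 to 1170 CPM at 30 °C and 57.9 to 153 CPM at 5 °C. In WAT they summed to 629.9 to 1068 CPM at 30 °C and 541.4 to 1454 CPM at 5 °C. Their sum therefore did not separate warm brown fat from WAT. Their geometric mean, with 0.01 CPM added, was 3.4 to 7.46 CPM in warm brown fat. In WAT it was 12.1 to 29.4 CPM at 30 °C, without overlap, and 5.42 to 21.0 CPM at 5 °C, with overlap. Of the 7 markers, 1 (Tcf21) was at 0 counts in all 8 brown fat libraries. WAT replicate 1 at 5 °C stood apart from the other WAT libraries. Its 11 mammary epithelium markers summed to 12.7 CPM, against 1009 to 1067 CPM in the other WAT libraries at 5 °C and 707 to 1150 CPM at 30 °C. Its 12 T and NK cell markers summed to 145 CPM, against 526 to 627 CPM, and its 8 adipocyte markers to 20730 CPM, against 5298 to 7987 CPM. Its 12 skeletal muscle markers summed to 6313 CPM, against 14.3 to 217 CPM in the other cold WAT libraries and 113 to 9211 CPM in WAT at 30 °C. The part of these differences in the members' values was not tested. Results that use this library are therefore given with and without it.

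In brown fat at 5 °C, most mitochondrial ribosomal protein genes stood higher than at 30 °C relative to the bulk of the transcriptome. With TMM scaling, 60 of the 77 tested members were higher, 1 was lower (Mrps9) and 16 were not called at an adjusted p under 0.05 (edgeR quasi-likelihood test, Benjamini-Hochberg over all 16213 genes tested). In bulk tissue, fewer cells of a type and less RNA per cell cannot be told apart. Over all genes tested in brown fat, 29.2% were called higher and 30.3% lower. The median log2 fold change of the members was 0.37, against -0.05 for all genes, but with library totals in place of TMM it was -0.01, with 29 members higher and 22 lower. Under that scaling 14.3% of all genes were higher and 54.5% lower. Library totals without mitochondrial transcripts gave -0.15, with 18 members higher and 36 lower, against 11% and 63.1% of all genes. These scalings shifted all genes together: the median of all genes was -0.43 with library totals and -0.57 without mitochondrial transcripts. The distance between the members' median and that of all genes was 0.42 under each of the 4 scalings, the fourth being relative log expression (RLE) size factors. A scaling shifts the fold change of every gene by nearly the same amount. The distance was therefore bound to stay and is no check of the rise.

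**Figure D1:**
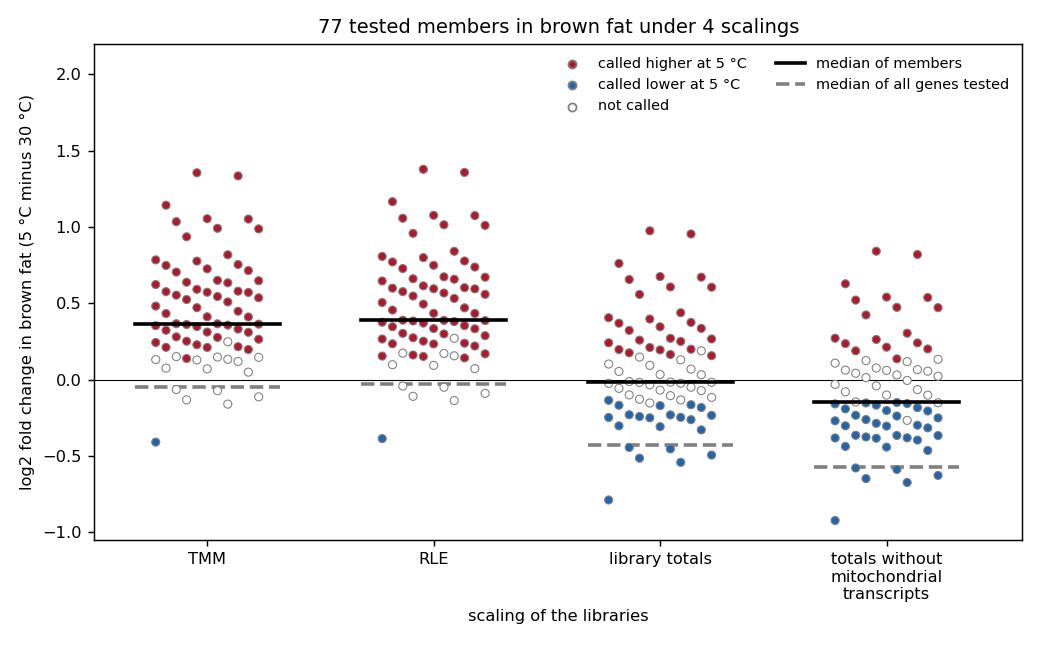
Log2 fold changes (5 °C minus 30 °C) of the 77 tested members in brown fat under 4 scalings of the libraries; each point is a gene, black lines are medians of the members and dashed grey lines medians of all genes tested. Members and all genes move down together from TMM to the library totals. A scaling shifts every gene nearly alike, so the gap of 0.42 between the medians was bound to stay.

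Under all 4 scalings 18 members were called higher: Mrpl1, Mrpl16, Mrpl20, Mrpl38, Mrpl42, Mrpl43, Mrpl46, Mrpl47, Mrpl50, Mrpl51, Mrpl54, Mrps2, Mrps5, Mrps11, Mrps22, Mrps23, Mrps27 and Mrps36. Mrps9 was the only member called lower under all 4. Another 20 members, among them Mrpl4, Mrpl13, Mrpl28, Mrps17 and Mrps35, were called higher with TMM and lower with library totals without mitochondrial transcripts. In cold brown fat, transcripts of mitochondrial DNA took 17.6% to 19.4% of counts, against 24.2% to 26.8% at 30 °C. As a share of all counts the members were at 0.358% to 0.375% at 30 °C and 0.382% to 0.405% at 5 °C, without overlap. As a share of the non-mitochondrial counts the members were at 0.489% to 0.495% at 30 °C and 0.470% to 0.491% at 5 °C, ranges that overlap.

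The largest rise was that of Mrpl50, a large-subunit protein without a bacterial counterpart. It had 57.0, 58.4, 52.9 and 57.4 CPM in the 4 libraries at 30 °C and 144, 138, 146 and 148 CPM at 5 °C. Every cold library lay far above every warm one, and the log2 fold change was 1.36 with an SE of 0.05 (adjusted p = 1.01e-07). Mrpl20, the counterpart of bacterial L20, which binds rRNA early in assembly of the large subunit, had 43.6, 44.3, 39.1 and 45.3 CPM at 30 °C. At 5 °C it had 122, 100, 103 and 110 CPM, and the fold change was 1.34 ± 0.08 (adjusted p = 9e-07). These were the members furthest from the rest; the next, Mrps27, was at 1.14.

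Mrps27 is a small-subunit protein of the pentatricopeptide repeat family, with 24.2% of its exon bases in 6430562O15Rik on the opposite strand. Its levels were 36.5, 35.0, 34.7 and 36.4 CPM at 30 °C and 78.1, 73.5, 81.4 and 81.7 CPM at 5 °C, with a fold change of 1.14 ± 0.05 (adjusted p = 2.75e-07). Mrps5, the counterpart of bacterial S5, had little spread within both groups: 71.4, 73.5, 72.3 and 71.8 CPM at 30 °C and 119, 118, 120 and 121 CPM at 5 °C (0.73 ± 0.04, adjusted p = 8.44e-07). Mrpl38, a large-subunit protein without a bacterial counterpart, had 74.5, 75.8, 74.6 and 74.7 CPM at 30 °C and 150, 138, 143 and 162 CPM at 5 °C (0.99 ± 0.06, adjusted p = 1.34e-06). In all 3 genes the groups were separated by several times their spread.

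Mrps9, the counterpart of bacterial S9, went the other way. Its levels were 78.8, 81.3, 86.0 and 82.2 CPM at 30 °C and 68.9, 60.6, 58.0 and 59.2 CPM at 5 °C, so that all cold libraries lay below all warm ones. The fold change was -0.41 ± 0.07 (adjusted p = 0.000527). It stayed lower in each of 8 fits that left out 1 library.

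**Figure D2:**
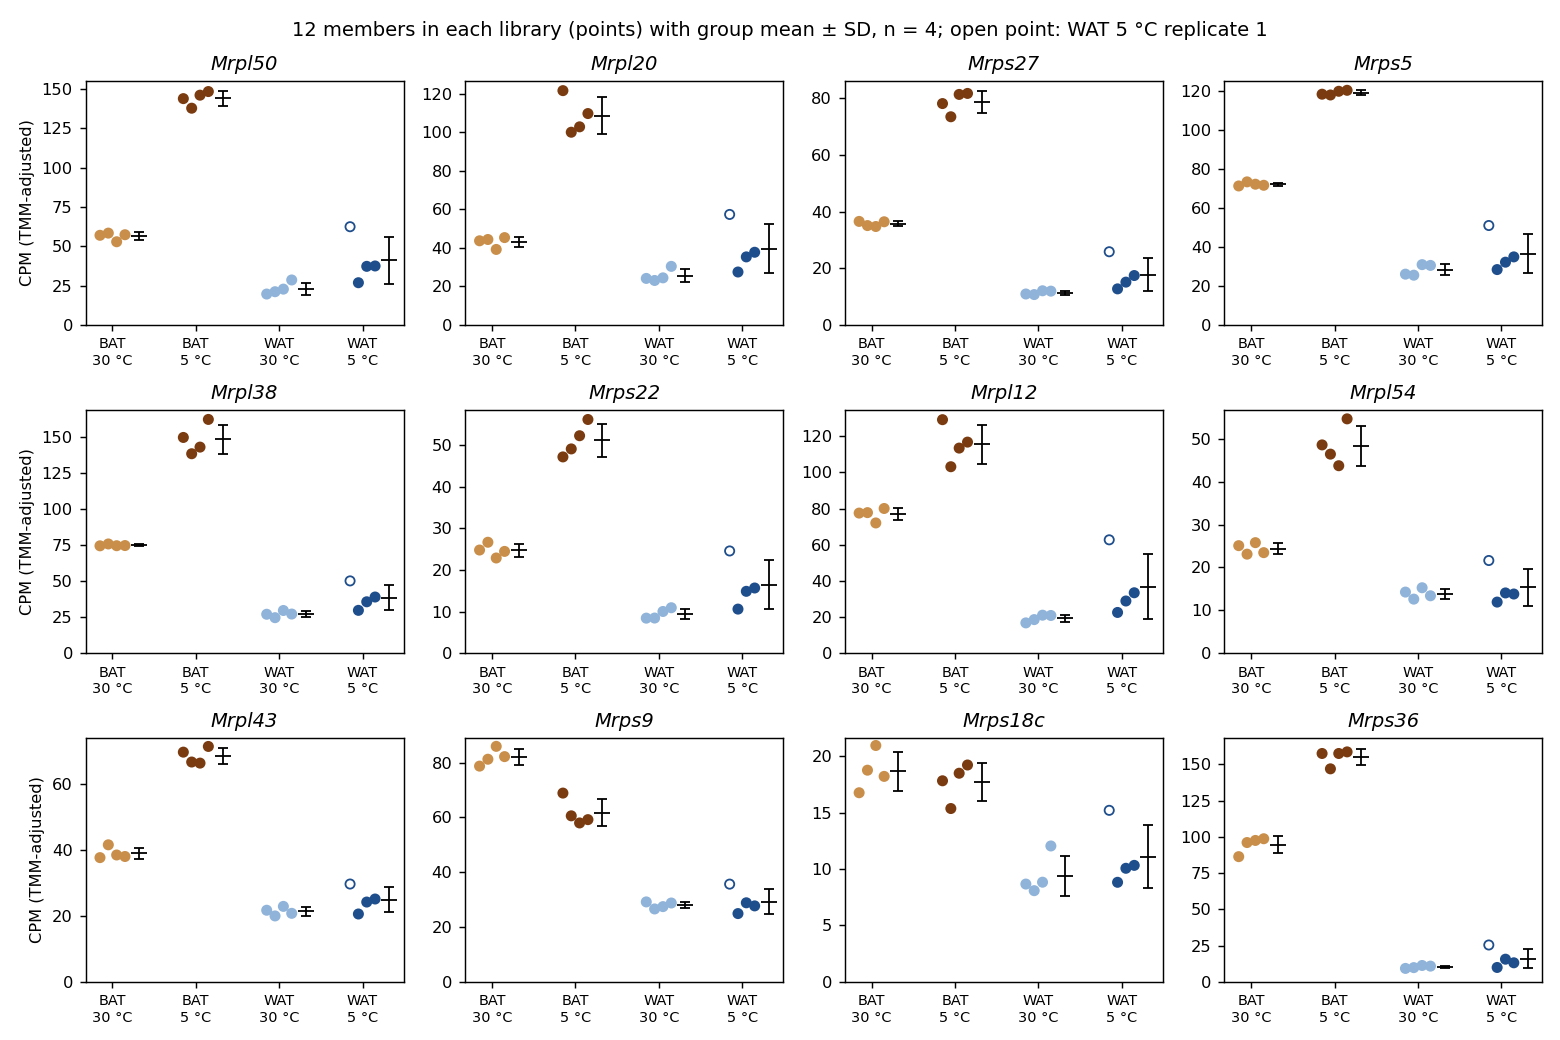
TMM-adjusted CPM of 12 members in each of the 16 libraries, with the mean ± SD of each group (n = 4); the open point is WAT replicate 1 at 5 °C. In brown fat 10 of the 12 genes are higher at 5 °C without overlap, Mrps9 is lower and Mrps18c overlaps; in WAT the open point is the highest of its group in every panel.

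Members of both subunits were called. Of the large subunit 41 of 50 tested members were higher and none lower, with a median of 0.37; of the small subunit 18 of 26 were higher and 1 lower, also with a median of 0.37. Large-subunit members without a bacterial counterpart had a median of 0.56 (17 of 20 higher) and those with one 0.34 (24 of 30 higher); for the small subunit the medians were 0.36 (7 of 10 higher) and 0.37 (11 of 16 higher, 1 lower). The summed CPM of large-subunit members over that of small-subunit members was 2.18 to 2.25 at 30 °C and 2.22 to 2.28 at 5 °C, overlapping ranges. Mrps36, which has no place in the ribosome, rose from 86.4, 96.1, 97.6 and 98.7 CPM to 158, 147, 158 and 159 CPM (0.71 ± 0.06, adjusted p = 7.74e-06).

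**Figure D3:**
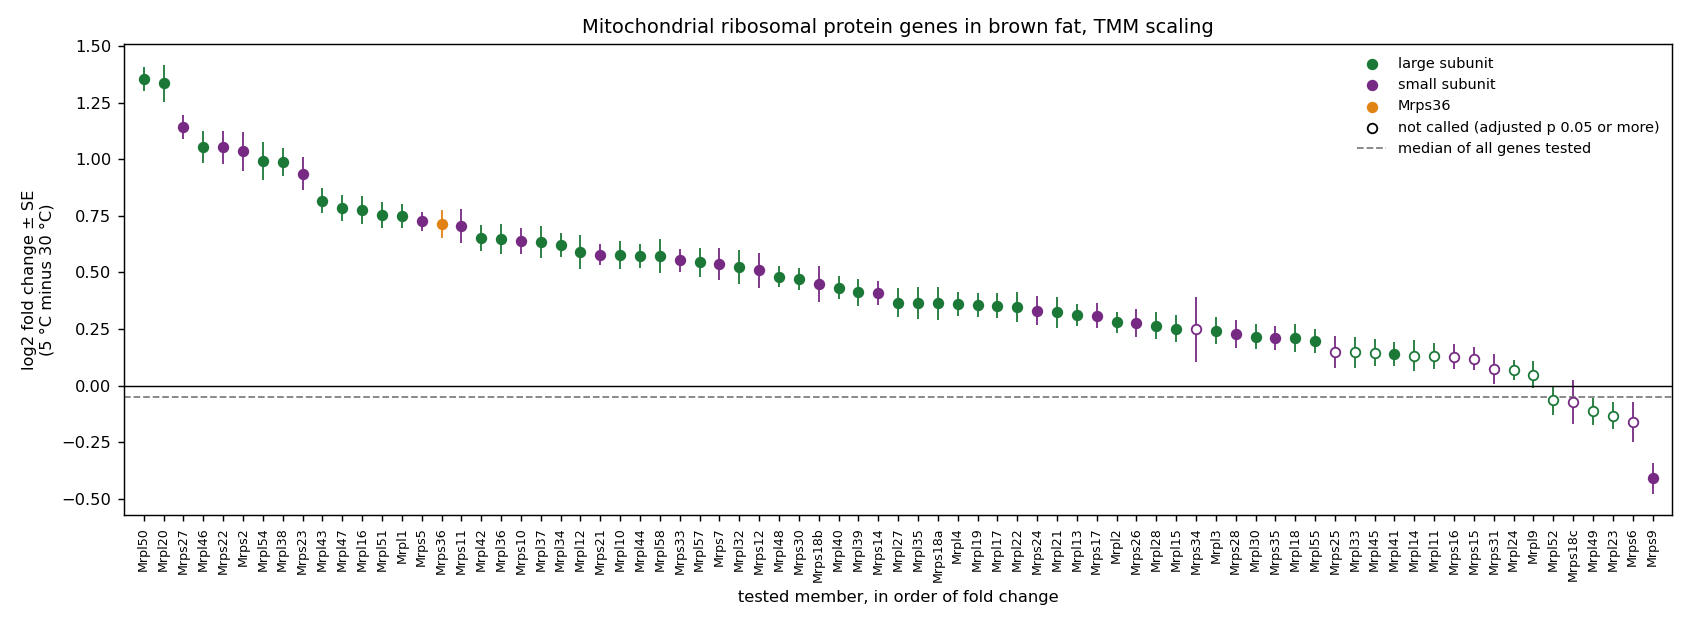
Log2 fold change ± SE (5 °C minus 30 °C, TMM scaling) of each of the 77 tested members in brown fat, ordered by size and coloured by subunit; open points were not called. The values run from -0.41 (Mrps9) to 1.36 (Mrpl50), and members of both subunits are spread along the order.

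The members did not move as a block. Their log2 fold changes had an SD of 0.35 and a middle range (first to last quartile) of 0.21 to 0.64, against an SD of 1.09 over all genes. Related proteins had different calls as well, though the difference between them was not tested. The mammalian mitoribosome carries products of 3 genes related to bacterial S18: Mrps18c and Mrps18b in the small subunit and Mrps18a in the large subunit. Mrps18b rose from 23.5 ± 2.26 to 32.0 ± 1.24 CPM (SD, n = 4; log2 fold change 0.45 ± 0.08, adjusted p = 0.00094). Mrps18a rose from 56.1 ± 2.58 to 72.1 ± 6.31 CPM (0.36 ± 0.07, adjusted p = 0.00174). Mrps18c was at 16.8 to 20.9 CPM in the warm and 15.4 to 19.2 CPM in the cold, overlapping ranges, and was not called (-0.07 ± 0.10, adjusted p = 0.544). With library totals the changes of Mrps18b and Mrps18a were not called. Exons of other genes cover 30.5% of the exon bases of Mrps18b (Gm16279, opposite strand) and 23.2% of those of Mrps18c (Gm43511, same strand). The part of these overlaps in the values was not tested.

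Members with further known roles were among those called higher with TMM. Mrpl12, part of the flexible stalk of the large subunit where translation factors bind, had 77.5, 77.7, 72.0 and 80.0 CPM at 30 °C and 129, 103, 113 and 117 CPM at 5 °C (0.59 ± 0.08, adjusted p = 0.000112). Mrpl58, also known as ICT1, is a peptidyl-tRNA hydrolase built into the large subunit and went from 28.4 ± 2.45 to 42.1 ± 1.97 CPM (SD, n = 4; 0.57 ± 0.07, adjusted p = 0.000126). Mrps12, the counterpart of bacterial S12 at the decoding site, went from 31.8 ± 1.71 to 45.2 ± 3.84 CPM (0.51 ± 0.08, adjusted p = 0.000309). Mrps30, a large-subunit protein despite its symbol, went from 41.7 ± 1.74 to 57.8 ± 0.851 CPM (0.47 ± 0.05, adjusted p = 2.79e-05). With library totals Mrpl12 stayed called and Mrpl58, Mrps12 and Mrps30 were not. The 5 members with a negative fold change that was not called were Mrpl23, Mrpl49, Mrpl52, Mrps6 and Mrps18c, between -0.16 and -0.07.

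Cell-type markers also differed between the warm and cold brown fat. Of the 9 brown adipocyte markers 8 were higher at 5 °C, and their summed level was 3034 to 5464 CPM at 30 °C and 18730 to 20400 CPM at 5 °C. Of the 12 T and NK cell markers 10 were lower, with sums of 12.6 to 20.7 CPM and 3.83 to 8.55 CPM, and none of them was at 0 in either group. The 8 macrophage markers had no call, with sums of 257 to 323 CPM and 226 to 320 CPM. Skeletal muscle markers summed to 24.3 to 1466 CPM and 230 to 2466 CPM, varying within both groups. The part of these differences in the members' change was not tested.

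Genes that serve the mitoribosome mostly moved the same way with TMM scaling. All 5 mitoribosome proteins with other names were higher (median 0.44), among them Ptcd3, a pentatricopeptide repeat protein of the small subunit (0.98 ± 0.07, adjusted p = 3.53e-06), and Dap3, a GTP-binding protein of the small subunit (0.39 ± 0.06, adjusted p = 0.000218). Of 15 translation factors 13 were higher and 2 lower (median 0.56). The elongation factors Gfm1 (1.27 ± 0.07, adjusted p = 5.76e-07) and Tufm (0.87 ± 0.05, adjusted p = 1.01e-06), and Gfm2, which recycles ribosomes (1.15 ± 0.06, adjusted p = 4.98e-07), were among the higher ones. Of 17 mitochondrial tRNA synthetases 13 were higher and 1 lower (median 0.58), led by Cars2 (1.97 ± 0.07, adjusted p = 6.83e-08). The 28 genes for assembly and rRNA modification were more divided, with 15 higher, 5 lower and a median of 0.24. The rRNA methyltransferase Nsun4 was at 1.24 ± 0.07 (adjusted p = 9.37e-07), while Mettl15, which methylates the small-subunit rRNA, was at -1.0 ± 0.09 (adjusted p = 1.34e-05). Of 10 genes for mitochondrial transcription and DNA maintenance 6 were higher and none lower, including Tfb2m (1.11 ± 0.07, adjusted p = 1.78e-06) and the RNA polymerase Polrmt (0.68 ± 0.07, adjusted p = 1.76e-05). With library totals the counts were 1 higher and 1 lower of the 5 proteins, 6 and 2 of the factors, 9 and 4 of the synthetases, 8 and 12 of the assembly genes, and 3 and 4 of the transcription genes.

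The rRNAs and mRNAs of the organelle itself did not follow 1 direction. Both rRNAs, mt-Rnr1 (1.02 ± 0.18, adjusted p = 0.000829) and mt-Rnr2 (0.90 ± 0.17, adjusted p = 0.00152), were higher, as read through poly(A) selection. Of the 13 mRNAs of mitochondrial DNA 3 were higher and 4 lower, with a median of -0.10. By smallest adjusted p, mt-Nd1 was at 0.73 ± 0.07 (adjusted p = 2.45e-05) and mt-Co3 at -2.72 ± 0.37 (adjusted p = 0.000166). Next were mt-Co1 at -0.5 ± 0.1 (adjusted p = 0.00175) and mt-Nd2 at 0.34 ± 0.09 (adjusted p = 0.00724). Per 1000 counts summed over the 13 mRNAs the members had 13.6 to 15.7 counts at 30 °C and 20.7 to 24.1 counts at 5 °C. These ranges do not overlap.

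Cytosolic ribosomal proteins, which build the ribosomes of the cytosol, had the opposite direction under TMM. Of 78 such genes none was higher and 74 were lower in cold brown fat, with a median of -0.64; with library totals 77 were lower (median -1.02). Rpl27a was at -1.34 ± 0.06 (adjusted p = 1.98e-07) and Rps4x at -1.06 ± 0.06 (adjusted p = 4.37e-07). Per 1000 counts of cytosolic ribosomal proteins the members had 194 to 216 counts at 30 °C and 440 to 468 counts at 5 °C. This ratio within a library does not depend on scaling, and its groups did not overlap. Nuclear-encoded subunits of the respiratory chain (OXPHOS) moved with the members: 65 of 76 were higher and 2 lower, with a median of 0.50 (with library totals 37 higher, 13 lower, median 0.12). Per 1000 OXPHOS counts the members had 102, 101, 95.5 and 99.2 counts at 30 °C and 91.5, 90.7, 93.6 and 88.1 counts at 5 °C, slightly lower in every cold library.

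**Figure D4:**
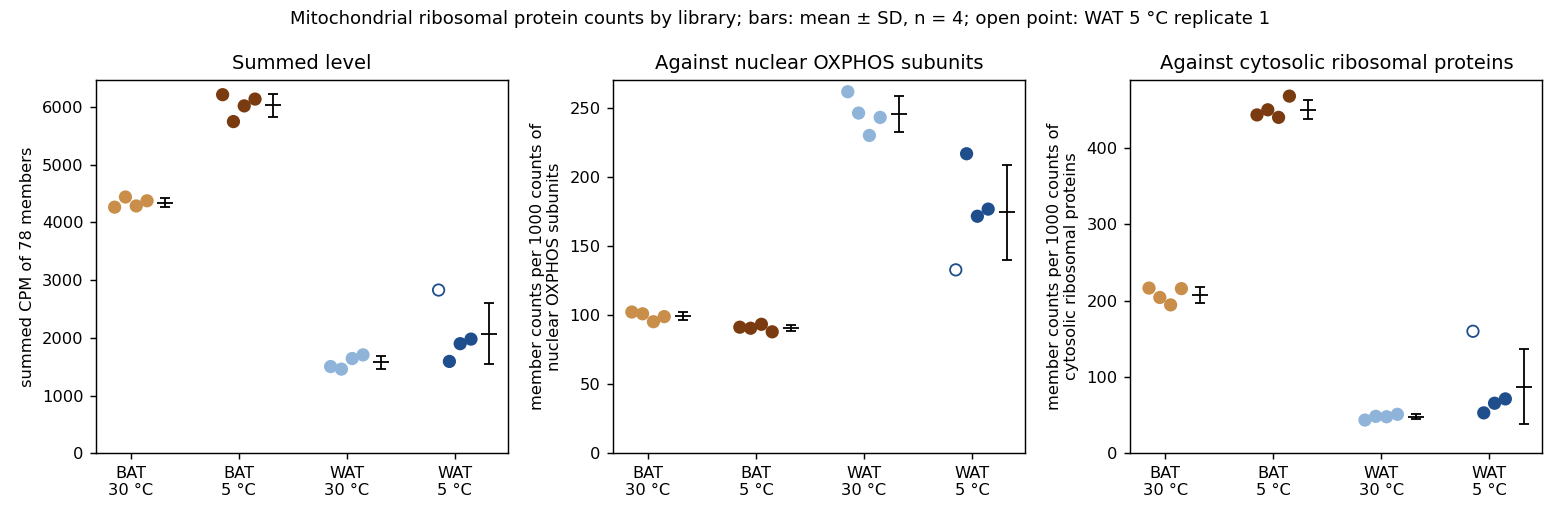
Summed TMM-adjusted CPM of the 78 members in each library, and their counts per 1000 counts of 76 nuclear OXPHOS subunits and of 78 cytosolic ribosomal proteins, with mean ± SD of each group (n = 4); the open point is WAT replicate 1 at 5 °C. In brown fat the ratio to cytosolic ribosomal proteins goes from 194 to 216 at 30 °C up to 440 to 468 at 5 °C, while the ratio to OXPHOS subunits goes down.

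Genes of the mitochondrial translation machinery often share promoter motifs, of which those of NRF1, the ETS family (which includes GABP) and YY1 are best known. RefSeq promoter windows of build GRCm38.p6, from 250 bases before to 50 after the transcription start, were found for 69 of the 78 members. On either strand, the NRF1 core GCGCANGCG was present in 16 of them (23.2%, against 7.03% of 27025 promoters of all genes), the ETS core CCGGAAG in 26 (37.7%, against 9.93%) and the YY1 core AAGATGGCG in 8 (11.6%, against 1.64%). At least 1 of the 3 was in 42 (60.9%, against 16.52%). No match of 1 motif overlapped a match of another; in 4 members matches of the same motif overlapped each other. Member promoters were also richer in CpG, with a median of 21 per window against 7 for all genes, a property that by itself changes the odds of such letters.

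The changes of members with and without a motif in cold brown fat (TMM) are given as a description; their differences were not tested. The 16 tested members with the NRF1 core ran from -0.41 to 0.59 (median 0.38) and the 52 without from -0.16 to 1.36 (median 0.45). The 25 with the ETS core ran from -0.07 to 1.14 (median 0.45) and the 43 without from -0.41 to 1.36 (median 0.41). The 8 with the YY1 core ran from 0.33 to 1.14 (median 0.64) and the 60 without from -0.41 to 1.36 (median 0.41). Promoters of 5 members are printed as examples. Those of Mrps27 and Mrps22, both up by more than 1 on the log2 scale, and of Mrpl12 and Mrps9, 1 up and 1 down, hold matches, and that of Mrpl50 holds none. These 5 were chosen after their values were seen and support no statement on motifs. Their windows from 220 bases before to 30 after the start (RefSeq, GRCm38.p6, 5′ to 3′ along the gene) are given in lower case, with motif matches in capitals.

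Mrps27 has an ETS core on the opposite strand from base -48 and a YY1 core from base 15, counted from the start:
Mrps27, chr13:99344566-99344815, plus strand: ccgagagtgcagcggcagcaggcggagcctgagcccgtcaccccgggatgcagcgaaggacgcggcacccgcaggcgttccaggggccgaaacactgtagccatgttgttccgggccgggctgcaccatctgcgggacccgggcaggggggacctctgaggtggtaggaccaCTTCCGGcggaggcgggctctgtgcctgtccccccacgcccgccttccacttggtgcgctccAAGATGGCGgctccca
Mrps22 has an ETS core from base -11:
Mrps22, chr9:98601650-98601899, minus strand: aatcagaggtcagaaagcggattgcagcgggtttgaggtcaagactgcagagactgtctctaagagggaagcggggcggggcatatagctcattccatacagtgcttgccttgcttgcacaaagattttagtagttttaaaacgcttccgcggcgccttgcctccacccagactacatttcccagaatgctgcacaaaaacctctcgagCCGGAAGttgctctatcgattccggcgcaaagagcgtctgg
Mrpl12 and Mrps9 hold the same 9 letters of the NRF1 core on the opposite strand, from base -80 and from base -4:
Mrpl12, chr11:120484417-120484666, plus strand: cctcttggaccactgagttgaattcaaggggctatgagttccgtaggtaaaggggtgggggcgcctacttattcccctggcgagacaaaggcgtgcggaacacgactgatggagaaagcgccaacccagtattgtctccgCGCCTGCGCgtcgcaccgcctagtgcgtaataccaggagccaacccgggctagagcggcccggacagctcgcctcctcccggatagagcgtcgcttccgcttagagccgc
Mrps9, chr1:42851013-42851262, plus strand: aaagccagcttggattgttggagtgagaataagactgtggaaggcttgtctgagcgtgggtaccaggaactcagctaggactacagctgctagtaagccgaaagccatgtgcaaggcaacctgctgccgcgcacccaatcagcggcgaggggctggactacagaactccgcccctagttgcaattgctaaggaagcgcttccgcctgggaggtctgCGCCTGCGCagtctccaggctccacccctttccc
Mrpl50 has none of the 3 motifs in this window:
Mrpl50, chr4:49521054-49521303, minus strand: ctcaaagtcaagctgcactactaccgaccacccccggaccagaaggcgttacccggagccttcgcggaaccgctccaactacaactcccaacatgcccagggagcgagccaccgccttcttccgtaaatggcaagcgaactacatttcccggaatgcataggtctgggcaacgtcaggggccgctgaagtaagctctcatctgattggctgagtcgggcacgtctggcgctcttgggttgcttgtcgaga

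Many of these genes sit head to head with a neighbour. In the GENCODE vM21 annotation, 23 members start within 1000 bases of a gene transcribed the other way, with at most 200 bases of overlap, and 22 of these pairs had both genes tested in brown fat. Of the members in those pairs 19 were higher at 5 °C, and of their partners 9 were higher, 6 were lower and 7 were not called, where 29.2% of all genes were higher and 30.3% lower. In 9 pairs both genes were higher and in 4 the member was higher and its partner lower. Across the 22 pairs the fold changes had a Pearson correlation of 0.45 and a Spearman correlation of 0.42, as a description over genes that share libraries and promoters. Mrps27 and Ptcd2, which lie 81 bases apart and whose promoter is printed above, rose alike (1.14 and 1.02). Mrps12 and Sars2, a mitochondrial tRNA synthetase, lie 172 bases apart and were at 0.51 and 0.93. Mrps5 and the zinc finger gene Zfp661, 128 bases apart, went in opposite directions (0.73 and -0.37). Mrpl49 and Fau, whose product includes a cytosolic ribosomal protein, lie 59 bases apart and were at -0.11 (not called) and -0.44. These partners were chosen after their values were seen.

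In inguinal WAT no member passed the threshold when its 8 libraries were fitted alone with edgeR. Of 77 tested members none was called higher or lower by edgeR with all 8 libraries, where 0.0632% of all genes were called. Without replicate 1 of the cold group, again none was called, against 2.11% of all genes. The median log2 fold change of the members was 0.35 with all libraries and 0.17 without that library, against -0.01 and -0.02 for all genes. With library totals it was 0.06 and 0.03. DESeq2 called 1 member higher with all libraries (Mrps2, 0.65, adjusted p = 0.0249), against 4.46% of all genes, and 12 higher without replicate 1, against 7.35%, and none lower in either. The edgeR fit of all 16 libraries, which shares 1 estimate of the spread between the tissues, called 26 members higher in cold WAT and none lower, against 7.39% of all genes higher.

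Replicate 1 was the highest of the 4 cold WAT libraries in 74 of the 77 tested members and the lowest in 1. The members summed to 1459 to 1705 CPM in WAT at 30 °C, to 1592, 1900 and 1979 CPM in replicates 2 to 4 at 5 °C, and to 2828 CPM in replicate 1. As a share of all counts they were at 0.226% to 0.249% at 30 °C and 0.230% to 0.265% at 5 °C, overlapping ranges. In 13 members all 4 cold libraries lay above all warm ones, against 8.23% of genes tested; the same 13 did so without replicate 1, against 12.1% of genes. They were Mrpl4, Mrpl10, Mrpl12, Mrpl14, Mrpl16, Mrpl19, Mrpl22, Mrpl38, Mrpl44, Mrps2, Mrps7, Mrps11 and Mrps27. No member had all cold libraries below all warm ones.

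The largest fold change in WAT was that of Mrpl12, the stalk protein. Its levels were 16.8, 18.6, 21.1 and 20.9 CPM at 30 °C and 62.7, 22.6, 28.9 and 33.4 CPM at 5 °C, so that replicate 1 lay far above the other 3 and below the 72.0 to 80.0 CPM of brown fat at 30 °C. The log2 fold change was 0.90 ± 0.29 (adjusted p = 0.217), and 0.51 ± 0.14 without replicate 1 (adjusted p = 0.088). Mrpl50 had 19.6, 21.1, 22.7 and 28.5 CPM at 30 °C and 62.5, 26.8, 37.2 and 37.5 CPM at 5 °C; the groups overlapped by 1 library (0.81 ± 0.25, adjusted p = 0.207; without replicate 1, 0.52 ± 0.16, adjusted p = 0.107). Mrps22, a small-subunit protein without a bacterial counterpart, had 8.44, 8.46, 10.0 and 10.9 CPM and then 24.6, 10.6, 14.9 and 15.7 CPM (0.77 ± 0.24, adjusted p = 0.208; without, 0.50 ± 0.15, adjusted p = 0.112). Mrpl16, the counterpart of bacterial L16, had 13.2, 12.1, 14.9 and 13.8 CPM and then 36.3, 16.2, 20.2 and 21.0 CPM, with no overlap (0.76 ± 0.23, adjusted p = 0.207; without, 0.47 ± 0.11, adjusted p = 0.0696). In the edgeR fits of WAT alone, none of the 4 was called with or without the library.

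Other mitochondrial genes were not called either in the edgeR fit of WAT alone with all libraries. Of 76 OXPHOS subunits 0 were called (median 0.86), and of 15 translation factors 0 (median 0.41). Of 17 tRNA synthetases 0 were called (median 0.14), and of 13 mitochondrial mRNAs 0 (median 1.20). Without replicate 1 the OXPHOS median was 0.52, with 2 genes higher. Per 1000 OXPHOS counts the members in WAT had 262, 247, 230 and 244 counts at 30 °C, 217, 172 and 177 counts in replicates 2 to 4 at 5 °C, and 133 counts in replicate 1. All cold libraries lay below all warm ones in this ratio. Brown adipocyte markers summed to 18.6 to 38.5 CPM in WAT at 30 °C and 87.7 to 815 CPM at 5 °C; their part in the members' values was not tested.

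The test of the difference between the tissues' responses called few members with all libraries. With TMM the cold effect in WAT minus that in BAT was called higher for 1 member, against 12.5% of genes, and lower for 6, against 8.34%. Mrps9 was the higher one (0.48 ± 0.13, adjusted p = 0.0187). The lower ones were Mrpl54 (-0.84 ± 0.20, adjusted p = 0.00851), Mrpl20 (-0.70 ± 0.24, adjusted p = 0.048), Mrpl43 (-0.59 ± 0.13, adjusted p = 0.00397), Mrps23 (-0.52 ± 0.18, adjusted p = 0.0488), Mrpl37 (-0.48 ± 0.16, adjusted p = 0.0421) and Mrpl58 (-0.45 ± 0.13, adjusted p = 0.0219). Mrpl43, Mrpl54, Mrpl58 and Mrps9 kept their call in each of 16 fits that left out 1 library. Without WAT replicate 1 at 5 °C, 29 members were called lower and Mrps9 remained the 1 called higher, against 15.7% and 15.6% of genes. The added members included Mrpl50 (-0.84 ± 0.16, adjusted p = 0.00136), Mrps27 (-0.78 ± 0.11, adjusted p = 0.000159) and Mrpl46 (-0.85 ± 0.12, adjusted p = 0.000159). This split depended on scaling: with all libraries it was 6 higher and 12 lower with library totals, against 13.4% and 5.54% of genes. With library totals without mitochondrial transcripts it was 25 higher and 5 lower, against 23.5% and 3.89% of genes.

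Mrpl54 shows the difference most plainly. This large-subunit protein had 25.1, 23.1, 25.8 and 23.4 CPM in warm and 48.6, 46.4, 43.7 and 54.6 CPM in cold brown fat. In WAT it had 14.3, 12.6, 15.3 and 13.4 CPM in the warm and 11.9, 14.1 and 13.8 CPM in replicates 2 to 4 in the cold, with replicate 1 at 21.6 CPM. In 3 of the 4 cold WAT libraries it lay within or below the warm range, while all 4 cold brown fat libraries lay far above theirs. Mrpl43, whose exons overlap those of Twnk on the opposite strand over 33.4% of their length, had 37.7 to 41.6 CPM and 66.4 to 71.5 CPM in brown fat. In WAT it had 19.98 to 22.9 CPM in the warm and 20.6 to 25.1 CPM in replicates 2 to 4 in the cold.

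**Figure D5:**
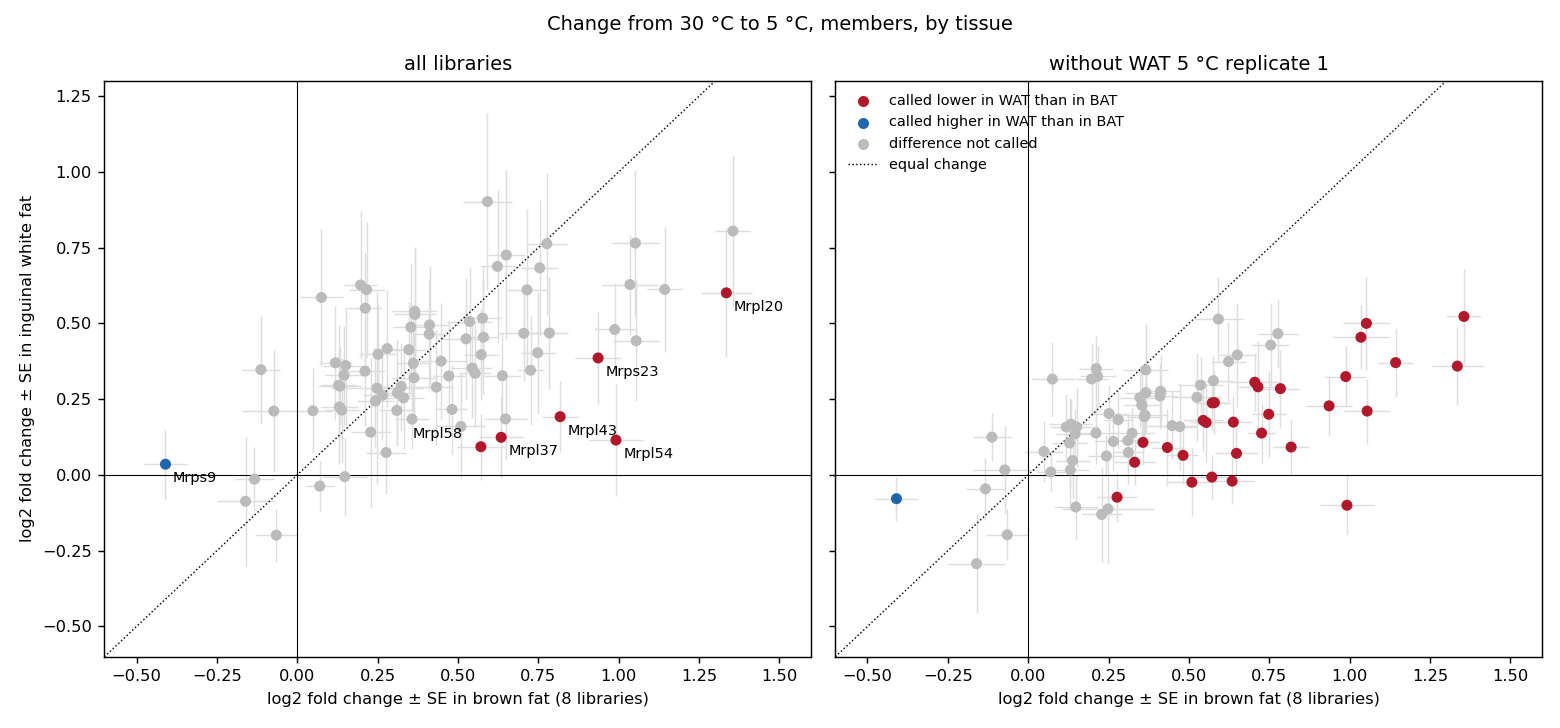
Log2 fold change ± SE (5 °C minus 30 °C) of the 77 tested members in inguinal WAT against that in brown fat, with all libraries and without WAT replicate 1 at 5 °C; red and blue points were called lower or higher in WAT than in BAT by the test of the difference, and the dotted line marks equal change. Leaving out that library lowers the WAT values and turns 6 called lower into 29, while Mrps9 stays the 1 called higher.

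Relative to the bulk of the transcriptome, brown fat held more of these transcripts than WAT at either temperature. At 30 °C all 77 tested members were higher in BAT, against 34.5% of all genes, with a median log2 difference of 1.35; with library totals the median was 0.51, and 59 were higher and 4 lower (Mrpl24, Mrpl33, Mrpl52 and Mrps26), against 12.9% and 66.1% of genes. At 5 °C again all 77 were higher, against 31.8% of genes, with a median of 1.46; without WAT replicate 1 all 77 were higher, against 34.0% of genes, with a median of 1.66. With library totals the median at 5 °C was 0.57, and 62 were higher and 5 lower, the same 4 genes and Mrps6, against 10.9% and 71.2% of genes. The 2 tissues share neither cell types nor composition. In WAT at 30 °C the T and NK cell markers summed to 664 to 958 CPM and the mammary epithelium markers to 707 to 1150 CPM, against 12.6 to 20.7 CPM and 1.26 to 17.3 CPM in brown fat, and their part in the difference was not tested.

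The largest tissue difference was that of Mrps36, the dehydrogenase subunit, at 86.4 to 98.7 CPM in BAT and 9.20 to 11.2 CPM in WAT at 30 °C (3.21 ± 0.21, adjusted p = 1.81e-08). Among ribosomal members it was Mrpl34, the counterpart of bacterial L34, with 68.1, 66.7, 65.2 and 62.2 CPM in BAT and 9.96, 10.2, 11.2 and 8.68 CPM in WAT (2.71 ± 0.20, adjusted p = 3.49e-08). Mrps35, a small-subunit protein, followed with 74.7 to 78.7 CPM and 14.1 to 17.7 CPM (2.29 ± 0.14, adjusted p = 1.13e-08). Mrpl42 had 113 to 124 CPM and 20.1 to 31.8 CPM (2.25 ± 0.22, adjusted p = 5.27e-07). The smallest difference was that of Mrpl52 (0.21 ± 0.07, adjusted p = 0.0149), which was called lower with library totals.

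Some members stood high in 1 comparison and not in the other. Mrpl34 was at 0.62 ± 0.05 in cold brown fat and Mrps35 at 0.21 ± 0.05, against 1.34 for Mrpl20, whose tissue difference at 30 °C was 0.76 ± 0.17. The median tissue difference of OXPHOS subunits was 2.69 at 30 °C, above the 1.35 of the members. Per 1000 OXPHOS counts the members had 95.5 to 102 counts in BAT and 230 to 262 in WAT at 30 °C. Cytosolic ribosomal proteins were lower in BAT at 30 °C for 68 of 78 genes (median -0.66), where 35.3% of all genes were lower. Per 1000 of their counts the members had 194 to 216 counts in BAT and 43.7 to 51.2 in WAT.

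Levels of different members can be compared only per length of transcript, here as CPM per kilobase of annotated exon. The median member was at 23.0 CPM per kb in BAT at 30 °C, 29.1 in BAT at 5 °C, 8.34 in WAT at 30 °C and 11.6 in WAT at 5 °C. The highest over all libraries were Mrpl34, at 108 ± 4.18 CPM per kb in BAT at 30 °C and 166 ± 6.19 at 5 °C (SD, n = 4), and Mrps21, the counterpart of bacterial S21, at 87.5 ± 2.33 and 131 ± 3.09. In WAT at 30 °C the order changed: Mrps21 was first, at 34.7 ± 3.67, and Mrpl34 was 13th, at 16.5 ± 1.72. With the median transcript length in place of the exon union Mrpl34 ranked 7th in BAT at 30 °C, so its first place rests on the length used. Across the 78 members the order in BAT at 30 °C had a Spearman correlation of 0.934 with that in BAT at 5 °C and 0.865 with that in WAT at 30 °C, as a description over genes of shared libraries. Each gene was divided by the same length in every group, so the orders also share that divisor.

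The lowest tested level per length was that of Mrps34, a small-subunit protein, with 154 to 400 counts per library. It was at 5.20 to 7.39 CPM in BAT at 30 °C, 6.64 to 8.33 CPM in BAT at 5 °C and 1.84 to 2.66 CPM in WAT at 30 °C. For this gene 77.8% of exon bases lie in exons of Mapk8ip3 or Nme3, and Nme3 had 0 counts in all 16 libraries. Mrpl53 had 88.0% of its exon bases in exons of other genes, mainly Gm42688 on the same strand, which had 120 to 713 counts per library where Mrpl53 had 0 or 1. For Mrps25 69.8% of exon bases lie in Nr2c2 on the opposite strand. The levels of these 3 genes are therefore uncertain. In all, 10 members had more than 20% of their exon bases in exons of other genes and 45 had none; the kit the labels name does not keep the strand, so reads of opposite-strand neighbours cannot be told apart.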

How the data were processed

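Poly(A) RNA libraries (TruSeq, per the labels' protocols) were trimmed with Trim Galore and aligned with TopHat, per the submitters' processing notes; for versions, genome build, annotation and counting tool the sources used here give nothing. The deposited values are raw counts per Ensembl gene, made by the authors. Of 46078 genes, 45143 matched a symbol in GENCODE vM21 (GRCm38); unmatched genes, 0.0403% to 0.1165% of counts per library, stayed in the totals. Counts were tested with edgeR 4.0.16 (R 4.3.3): filterByExpr (minimum count 10, minimum total 15), TMM, glmQLFit and glmQLFTest, Benjamini-Hochberg adjustment over all genes tested, threshold 0.05. Cold effects were fitted within each tissue (8 libraries); differences between tissues and between their responses in 1 fit of 16. Each SE was computed as |log2 fold change| / sqrt(F). CPM values use TMM factors over 16 libraries. Scripts were tested on simulated data, with changed genes drawn at random from those tested and WAT taken without replicate 1 at 5 °C. Of 100 genes changed by 0.5 on the log2 scale, 21 were called in BAT and 5 in WAT. Of 100 changed by 1, the calls were 62 and 60. These rates are for genes of all levels, and recovery at the members' own levels was not examined. A missing call in WAT does not by itself show absence of change. Within groups, none of 24 pairs of libraries agreed within sampling noise; their chi-square divided by its degrees of freedom was at least 19.9. Genes with values in each library were named by rule: 8 chosen members, and those with the smallest adjusted p in BAT, the largest fold changes in WAT, in the difference of responses and between tissues, and the extreme levels per length; of other lists up to 4 genes with the smallest adjusted p in BAT. Members, lists and rules were chosen with earlier results of these data known. Alternatives were other scalings, DESeq2 1.42.0, no filter, a threshold of 0.01, a replicate block, a joint fit of 16 libraries and leaving out libraries. Scaling to totals without mitochondrial transcripts, and its and other settings' combination with leaving out WAT replicate 1 at 5 °C, was chosen after seeing the data.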

Additional observations from a re-analysis of the deposited data

Results flagged for a closer look

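Within the 4 groups, the highest or lowest library lay apart from its group in 6 of 112 cases examined (the members given by library, and 4 sums or ratios over members, in each group); chance alone gives about 1 in 20. Mrpl38 was at 75.82 CPM in replicate 2 of BAT at 30 °C, against 74.53 to 74.72 CPM in the other 3 libraries, and Mrps18a at 81.45 CPM in replicate 1 of BAT at 5 °C, against 67.57 to 69.93 CPM. Replicate 2 of BAT at 5 °C was lowest for Mrps21 (93.06 CPM, others 97.39 to 97.96 CPM) and for Mrps36 (147.0 CPM, others 157.59 to 158.67 CPM). Mrps30 was at 21.35 CPM in replicate 4 of WAT at 30 °C, against 15.86 to 16.49 CPM, and Mrps34 at 4.673 CPM in replicate 1 of WAT at 5 °C, against 1.99 to 2.21 CPM.

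The cold effect differed between the tissues, by the test of the difference itself, for 7 of 77 members, 1 higher and 6 lower, where 12.5% of all genes were higher and 8.34% lower. As WAT minus BAT on the log2 scale, with edgeR's adjusted p, the values were -0.84 for Mrpl54 (0.00851), -0.70 for Mrpl20 (0.048), -0.59 for Mrpl43 (0.00397), -0.52 for Mrps23 (0.0488), -0.48 for Mrpl37 (0.0421), -0.45 for Mrpl58 (0.0219) and 0.48 for Mrps9 (0.0187).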

How the results depend on the processing

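Scaling moved the members of cold brown fat together with all genes. In place of 60 higher and 1 lower, library totals gave 29 and 22, and totals without mitochondrial transcripts 18 and 36; the members' median went to -0.013 and -0.147, Mrps18a to -0.018 and -0.152, and, without mitochondrial transcripts, Mrps12 to -0.005, Mrps18b to -0.065 and Mrps30 to -0.041. Positive fold changes went from 71 to 38 and 31. The distance from the median of all genes stayed at 0.42, as it must when all genes shift alike. Which scaling matches RNA per cell was not tested. Leaving out each library gave 58 to 64 higher and 1 to 2 lower in BAT (Mrps6 added without replicate 3 at 5 °C). Of all genes, 4354 to 4812 were then higher and 4233 to 4668 lower. The 4 BAT libraries whose source name matches their title gave 48 and 1, against 3351 and 2707 of 16535 genes. Mrps18c, not called in BAT, went to 0.091 in those 4 libraries and ran from -0.117 to 0.01 when each library was left out (highest without replicate 3 at 30 °C).

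In WAT, higher calls went from 0 to 1 with DESeq2, 26 in the joint fit of 16 libraries and 12 with DESeq2 without replicate 1 at 5 °C, and stayed at 0 to 0 when each library was left out; the cause was not tested. Library totals without mitochondrial transcripts, library totals, and the same pair without replicate 1 gave -0.147, -0.188, -0.125 and -0.149 for Mrpl58, -0.099, -0.142, -0.145 and -0.169 for Mrps12, and -0.047, -0.089, -0.1 and -0.124 for Mrps18c, none called. Leaving out each library gave -0.007 to 0.149 for Mrpl58 and -0.024 to 0.268 for Mrps12, both lowest without replicate 1 at 5 °C (Mrps12 at -0.016 there with DESeq2 or RLE).

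For the difference of responses, in place of 1 higher and 6 lower, higher calls were 6 with library totals, against 2609 of 19481 genes. Totals without mitochondrial transcripts gave 25, against 4575. Without replicate 1 the same scalings gave 10 and 27, against 5354 and 7600 of 19849 genes. There were 0 at an adjusted p of 0.01, where the count over all genes is not given. Leaving out each library gave 1 to 3, against 1939 to 3101 genes. Lower calls were 12 with library totals, against 1079 of 19481 genes, and 10 with DESeq2, against 2548. Without replicate 1 library totals gave 13, against 1579 of 19849 genes. DESeq2 and RLE then gave 31 each, against 3687 and 3297. Calls were 2 without the filter, against 1205 of 32260 genes, and 2 at an adjusted p of 0.01. Leaving out each library gave 3 to 29 (29 without WAT replicate 1 at 5 °C), against 1282 to 3121 genes. The members' median, -0.03, went to 0.026 with library totals, 0.196 and (without replicate 1) 0.143 without mitochondrial transcripts, 0.003 without the filter, 0.004 without WAT replicate 4 at 30 °C, 0.09, 0.021 and 0.011 without WAT replicates 2, 3 and 4 at 5 °C, and -0.259 without replicate 1.

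Between tissues, lower calls went from 0 to 4 (30 °C) and 5 (5 °C) with library totals, against 66.1% and 71.2% of genes. Without mitochondrial transcripts they were 1 and 2, against 10006 and 12616 of 19481 genes. At 5 °C without replicate 1 the same scalings gave 5 and 3, against 14415 and 13271 of 19849 genes. Leaving out each library gave 76 to 77 higher at 30 °C, against 6330 to 6617 genes. At 5 °C it gave 77 to 77, against 5870 to 6744 genes. Equal replicate numbers were not shown to pair libraries (residual correlations -0.563 to 0.292). With the replicate block the calls were 59 higher and 1 lower in BAT, against 4524 and 4567 of 16213 genes, and 0 in WAT. The difference of responses then had 1 and 7, against 1989 and 1395 of 19481 genes. Between tissues 77 were higher at both temperatures, against 6507 genes at 30 °C and 6165 at 5 °C. Combinations with leaving out WAT replicate 1, and totals without mitochondrial transcripts, were added after seeing the data. Counts per member limit Mrps34 (154 in 1 library) and Mrpl53 most.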
